A study of Mus musculus with 18 samples.

Results

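Wild-type (WT) mouse macrophages activated with interleukin 4 (IL-4) were compared directly with WT macrophages activated with interferon gamma and lipopolysaccharide (IFNg/LPS). The comparison rests on 6 of the 18 RNA sequencing libraries of the series, which are the 3 WT IL-4 libraries and the 3 WT IFNg/LPS libraries. It covers 15627 of the 16474 listed genes, namely those that reached 10 in 3 or more of the 18 libraries. WT C57BL/6 mice aged 8 weeks gave the marrow for both groups, which was cultured for 6 days with M-CSF, on which macrophages depend for growth, at 50 ng/ml. One group was then kept for 24 h in IFNg with 100 ng/ml LPS and the other for 48 h in IL-4 at 20 ng/ml, and both media held 20 ng/ml M-CSF. Stimulus and duration therefore cannot be told apart in any difference given here. WT cells kept for 24 h in 20 ng/ml M-CSF alone (3 libraries) serve as a reference level, and the same 3 conditions in p110g-/- cells, which lack the catalytic subunit of PI3K gamma, complete the 18. Whether libraries 1, 2 and 3 of a group stem from different animals or cultures is not stated, so p-values measure a spread that may be technical.

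Macrophages read their surroundings and switch between broad programmes of gene expression. IFNg signals through JAK kinases and LPS through Toll-like receptor 4, NF-kB and interferon beta, and the combination arms the cell against microbes with nitric oxide, inflammatory cytokines and antigen presentation. IL-4 signals through STAT6 and is known for arginase, lectin receptors, chitinase-like proteins, lipid use and tissue repair, and macrophages grown from mouse bone marrow are a standard cell for studying this contrast.

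Values are read counts per gene divided by 1 factor per library. The 6 libraries held 40.6 to 69.6 M (1e6) reads, and 3 reads, the count that an observed 0 still allows, correspond to a value of 2.80 to 4.74 with IFNg/LPS and 2.49 to 3.51 with IL-4. Where every library of 1 stimulus was at or under that level, the gene is given by its levels, or by a lower bound on the fold where the whole group was at 0. Differences are in log2(value + 1), IL-4 minus IFNg/LPS, so a positive difference is higher with IL-4, and the added 1 understates the change of low genes. Adjusted p-values come from limma with Benjamini-Hochberg adjustment over all 15627 genes, and a gene is called at an adjusted p under 0.05. The first principal component of the 6 libraries separated the stimuli and held 91.9% of the variance, and the second, with 3.31%, separated libraries numbered 1 from those numbered 2 and 3.

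Most of the transcriptome differed between the stimuli. Of the 15627 genes, 11873 (76%) were called, 6041 (38.7%) higher with IL-4 and 5832 (37.3%) higher with IFNg/LPS. The more demanding test against a 2-fold difference was passed by 4270 genes (27.3%), 2216 (14.2%) in the IL-4 direction and 2054 (13.1%) in the IFNg/LPS direction. The 2 directions were balanced in number but not in size, since 12 genes exceeded 256-fold with IL-4 and 79 did with IFNg/LPS. For 3392 genes (21.7%) the 95% interval of the difference lay within 1.5-fold, and the median difference over all tested genes was 0.00. That median and the balance of the directions depend on the scaling of each library by 1 factor. Summed over genes, the scaled values reached 64.19 to 67.6 M with IFNg/LPS and 47.56 to 49.67 M with IL-4. The libraries of the 2 stimuli did not overlap for 12159 genes (77.8%). Reads were also more concentrated with IFNg/LPS, where the 1000 genes with the most reads took 67.8 to 69.7% of the reads, against 60.2 to 62.9% with IL-4. These shares of all genes are the background for every count over a gene group below.

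**Figure D1:**
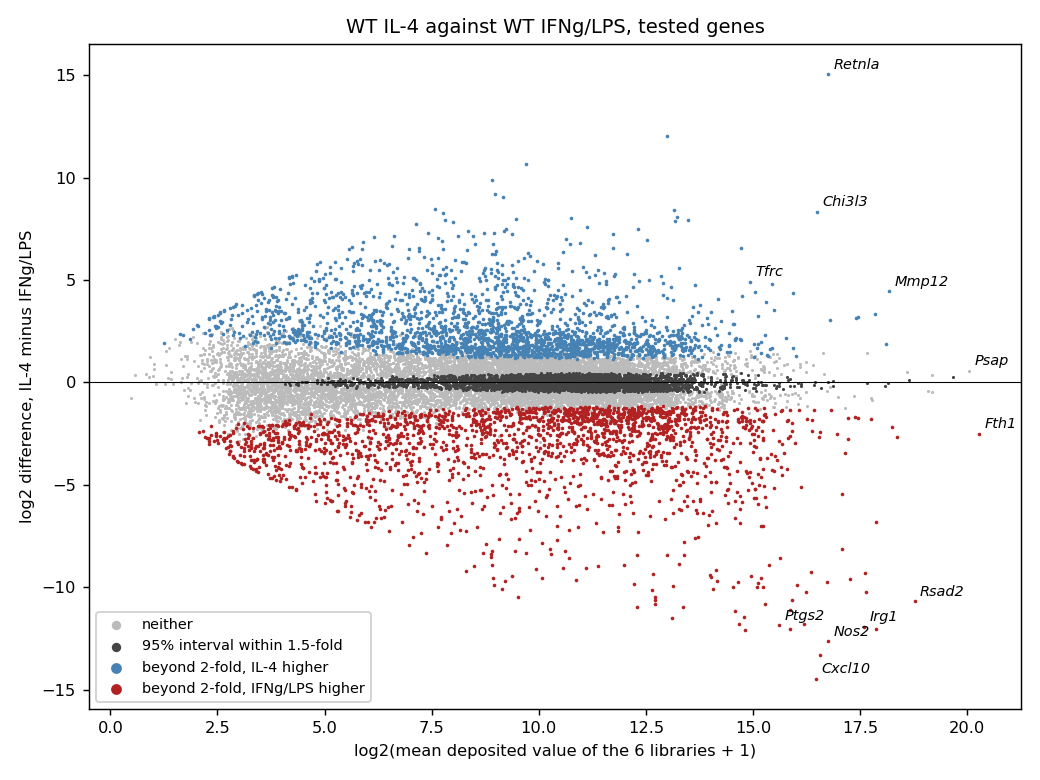
Difference between IL-4 and IFNg/LPS in log2(value + 1) (vertical axis) against the log2 of the mean value over the 6 libraries plus 1 (horizontal axis), 1 point per gene. Blue and red points passed the 2-fold test in the IL-4 and IFNg/LPS direction (2216 and 2054 genes), dark points have a 95% interval within 1.5-fold (3392 genes) and grey points neither, and the labelled Retnla and Cxcl10 lie at 15.05 and -14.46.

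All 24 polarisation markers, genes widely used to tell the states apart, passed the 2-fold test, 12 in each direction. The list was chosen with earlier results of these data known, so the even split reflects its make-up and is no finding. Retnla, a secreted resistin-like protein, was listed at 0, 95.2 and 1.6 in IFNg/LPS libraries 1, 2 and 3 and at 160556, 284182 and 214466 in IL-4 libraries 1, 2 and 3. Every IL-4 value was above every IFNg/LPS value, but IFNg/LPS library 2 stood far above its group. The difference of 15.05 (SE 1.12, adjusted p = 5.8e-09) became 17.02 without that library and 13.72 without library 1. On whole reads recovered from the values, it was 12.72 with DESeq2 and 12.47 with edgeR. Chi3l3, a chitinase-like protein, had values of 716, 538 and 438 with IFNg/LPS and 240932, 158794 and 152105 with IL-4, a difference of 8.34 (SE 0.59, adjusted p = 3.4e-09). Its near-identical copy Chi3l4 differed by 8.43, and reads shared between the copies may be split between them. Mrc1, the mannose receptor, had 629, 638 and 447 against 53084, 55252 and 51922, a difference of 6.56 (SE 0.21, adjusted p = 6.5e-13). Unlike Retnla, Mrc1 was already abundant in M-CSF, with a mean of 29665. Arg1, which breaks arginine down to ornithine and urea, had 551, 593 and 518 with IFNg/LPS and 2949, 7251 and 6736 with IL-4. It differed by 3.24 (SE 0.45, adjusted p = 7.2e-06), although both stimuli stood above the M-CSF mean of 0.867. Egr2, a transcription factor, differed by 6.93, and by 6.21 without IFNg/LPS library 1, which held 34 where the other two held 182 and 136.

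Among the markers higher with IFNg/LPS, the T cell attractant Cxcl10 showed the largest difference. Its values were 226922, 158072 and 160936 with IFNg/LPS and 6.5, 10.8 and 4.7 with IL-4, a difference of -14.46 (SE 0.59, adjusted p = 6e-12). Cxcl9, which binds the same receptor, had 174869, 232180.0 and 176458 against 19.5, 22.4 and 12.9, a difference of -13.32 (SE 0.36, adjusted p = 1.1e-13). Neither gene came near overlap, and both M-CSF means (239 for Cxcl10 and 44 for Cxcl9) were much nearer the IL-4 level. Nos2, which makes nitric oxide from arginine, had 272141, 191041 and 202085 against 60.4, 40.6 and 15.2, a difference of -12.63 (SE 0.54, adjusted p = 1.2e-11). Irg1, which makes itaconate from a TCA cycle intermediate, had 471284, 366831 and 340423 against 116, 158 and 52.7, a difference of -11.92 (SE 0.35, adjusted p = 2.1e-13). The co-stimulatory ligand Cd86 differed by -7.56 and the cytokine Tnf by -5.81, and library 1 held the highest IFNg/LPS value of both. Il12b and Il6 showed that order most, with 6736 and 6663 in IFNg/LPS library 1 against 2007 to 2405 and 1154 to 1256 in the other two. The difference of Il6 was -9.04 with all libraries and -8.21 without IFNg/LPS library 1.

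**Figure D2:**
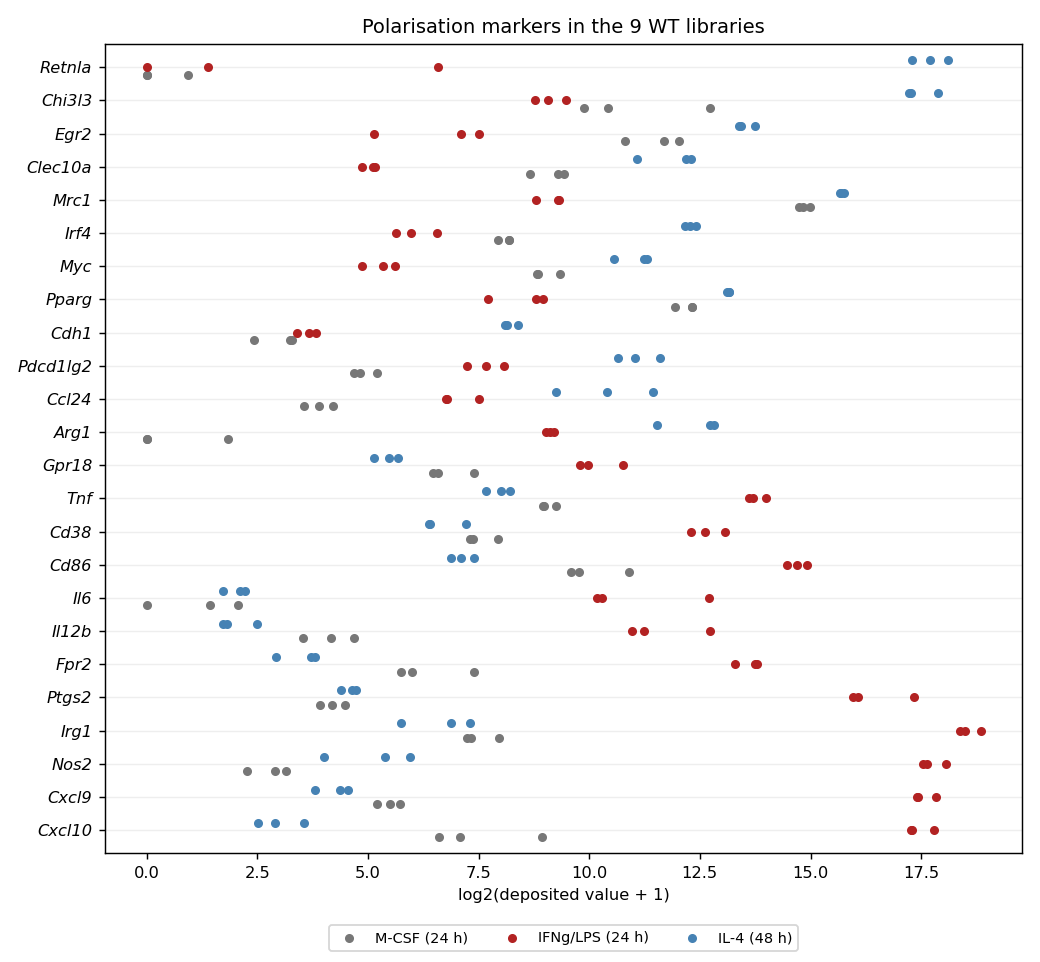
Values of the 24 polarisation markers on the log2(value + 1) scale (horizontal axis), 1 point per WT library, with M-CSF at 24 h in grey, IFNg/LPS at 24 h in red and IL-4 at 48 h in blue. The red and blue points do not overlap for any of the 24 genes, and the grey points show that Mrc1 and Pparg were high in M-CSF (means 29665 and 4736) while Retnla and Arg1 were not (0.3 and 0.867).

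Promoter sequence was examined for the genes at both ends, because STAT6, NF-kB and the interferon regulatory factors bind known motifs. The windows come from RefSeq on GRCm38.p6, whose coordinates are not those of the mm9 build of the deposited values, and 11493 of 15626 tested symbols had one. Retnla lies at chr16:48842359-48842608 on the plus strand, Chi3l3 (Chil3 in RefSeq) at chr3:106167565-106167814 on the minus strand, Cxcl10 at chr5:92348890-92349139 on the minus strand and Cxcl9 at chr5:92328080-92328329 on the minus strand. The 250 bases before the start are shown 5′ to 3′ on the strand of the gene, for 4 of the markers at the ends of the contrast, each chosen because its window holds a match. Capitals mark a match to 1 of 5 motifs searched on both strands. In the STAT6-type motif TTC and GAA are separated by 4 bases of any kind, and in the GAS-type motif (named for the gamma-activated site) by 3. The core of the interferon-stimulated response element (ISRE) is GAAA repeated after 2 bases of any kind, the kappaB motif is GGG and TTTCC separated by 2, and the TATA box is TATAAA.
Retnla: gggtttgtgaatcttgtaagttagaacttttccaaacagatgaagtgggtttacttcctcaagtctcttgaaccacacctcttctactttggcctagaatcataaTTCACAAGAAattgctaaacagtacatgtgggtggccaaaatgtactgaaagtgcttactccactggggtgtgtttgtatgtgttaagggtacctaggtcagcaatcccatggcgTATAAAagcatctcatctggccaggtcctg
Chi3l3: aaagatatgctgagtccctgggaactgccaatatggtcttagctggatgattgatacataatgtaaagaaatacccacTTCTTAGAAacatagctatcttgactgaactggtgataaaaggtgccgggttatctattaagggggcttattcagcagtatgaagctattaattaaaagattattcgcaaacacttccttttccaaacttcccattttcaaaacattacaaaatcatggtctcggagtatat
Cxcl10: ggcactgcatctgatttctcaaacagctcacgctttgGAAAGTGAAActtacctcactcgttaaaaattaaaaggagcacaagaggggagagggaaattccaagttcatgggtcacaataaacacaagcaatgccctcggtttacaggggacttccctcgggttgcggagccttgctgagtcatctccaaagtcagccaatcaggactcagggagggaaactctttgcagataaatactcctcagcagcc
Cxcl9: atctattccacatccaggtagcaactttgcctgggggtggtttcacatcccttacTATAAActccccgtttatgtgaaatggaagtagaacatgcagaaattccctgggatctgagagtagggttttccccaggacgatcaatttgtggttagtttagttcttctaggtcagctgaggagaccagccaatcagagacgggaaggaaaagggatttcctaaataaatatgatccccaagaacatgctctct
The Retnla window holds a STAT6-type match starting at -145 and a TATA box at -30, the Chi3l3 window a GAS-type match at -172, the Cxcl10 window an ISRE core at -213 and the Cxcl9 window a TATA box at -195. Of 2 further marker windows read the same way, that of Irg1 held a TATA box at -28 and that of Mrc1 no match. A match is a description of the letters and not evidence of binding.

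Over all tested genes with a window, which runs from 250 bases before to 50 after the start, the ISRE core was the motif whose share moved most with the difference. It was in 3.29% of the windows of tested genes, in 8.36% of those past the 2-fold test towards IFNg/LPS, in 16.8% of those beyond 16-fold in that direction, and in 2.45% of those beyond 16-fold towards IL-4. The kappaB motif was in 1.78%, 3.48%, 5.45% and 1.22% of the same sets. The GAS-type motif was in 7.01%, 8.83%, 13.1% and 6.42%. The STAT6-type motif was in 5.66% of tested windows, 9.41% of those beyond 16-fold towards IFNg/LPS and 9.79% of those beyond 16-fold towards IL-4, so its share was raised at both ends. The TATA box was in 8.03%, 17.6% and 10.7% of those sets. In all 32851 windows of the table the shares were 3.44% (ISRE), 1.63% (kappaB), 8.3% (GAS-type), 6.95% (STAT6-type) and 13.6% (TATA). No test was made of these shares.

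**Figure D3:**
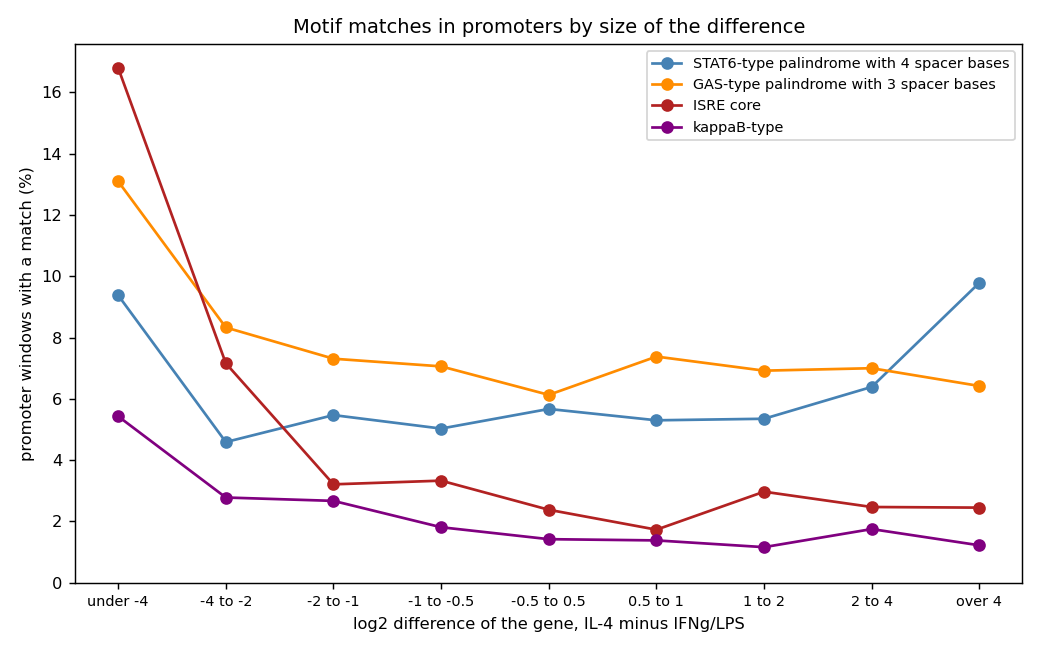
Share of promoter windows with at least 1 match (vertical axis, percent) by bin of the log2 difference between IL-4 and IFNg/LPS (horizontal axis), 1 line per motif. The ISRE core falls from 16.8% in the bin under -4 to 2.38% between -0.5 and 0.5 and is at 2.45% over 4, whereas the STAT6-type motif is at 9.38%, 5.67% and 9.79% in these bins.

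All 16 tested interferon gamma-induced GTPases, which attack the vacuoles of intracellular microbes, passed the 2-fold test towards IFNg/LPS (background 13.1%), with a median difference of -6.90. This list and the interferon-stimulated list below hold genes known to respond to interferon. Both were chosen with earlier results of these data known, so their shares reflect their make-up and are no finding. Iigp1 had 132862, 115790.0 and 111086 with IFNg/LPS and 26, 39 and 21.1 with IL-4, a difference of -12.02 (SE 0.29, adjusted p = 5.3e-14). Gbp2 had 536587, 476503 and 416539 against 4434, 4832 and 3613. Its difference was -6.80 (SE 0.16, adjusted p = 3.8e-14), and its IL-4 values stood above the M-CSF mean of 1678, whereas those of Iigp1 stood below the M-CSF mean of 243. Gbp4 differed by -11.81, Gbp5 by -9.88 and Irgm1 by -4.99. Together the list took 2.53% of reads with IFNg/LPS and 0.0335% with IL-4. Tgtp1 and Tgtp2 are near-identical copies, and the Gbp genes are related members of a family. How reads shared between such genes were assigned is not given in the sources used here.

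Of the 11 promoter windows found for 10 of the GTPase genes, 9 (81.8%) held the ISRE core, against 13 of 27 windows (48.1%) of the antiviral genes described next, 1 of 26 (3.85%) of the sterol and fatty acid synthesis genes and 3.29% of all tested windows. The stretches around it are shown on the strand of the match, with the core in capitals, because the motif was in a larger share of these windows than in those of the other 3 lists examined. They were selected after the values had been seen.
Gbp2: ttaagacagtGAAAGTGAAActaaaagagt
Gbp3: ctgggaaataGAAACTGAAActgtgtcctg
Gbp5: tctctaaactGAAATTGAAActacacaagt
Gbp7: atggagaactGAAACTGAAActgcacacac
Igtp: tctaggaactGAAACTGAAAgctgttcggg
Irgm1: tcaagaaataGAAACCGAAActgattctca
Irgm2: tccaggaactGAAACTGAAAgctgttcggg
Tgtp1: tccaggaatcGAAACTGAAAcctacctgac
Tgtp2: tccaggaatcGAAACCGAAAcctactctga
The first 4 lie on chromosome 3 at chr3:142620594-142620623, chr3:142559989-142560018, chr3:142496759-142496788 and chr3:142530273-142530302, and the others on chromosome 11 at chr11:58199512-58199541, chr11:48871425-48871454, chr11:58214903-58214932, chr11:48992304-48992333 and chr11:49064263-49064292. The core sits between -24 (Irgm1) and -165 (Gbp5) from the start, and Gbp3 and Irgm1 hold a second overlapping match at -39 and -30.

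All 31 tested interferon-stimulated antiviral genes also passed the 2-fold test towards IFNg/LPS, with a median of -5.52. The list took 4.92% of IFNg/LPS reads and 0.0765% of IL-4 reads. Rsad2 (viperin), which blocks viral replication, alone took 1.35% of IFNg/LPS reads and 0.00111% of IL-4 reads, a difference of -10.68 (SE 0.48, adjusted p = 1.7e-11). Isg15, a ubiquitin-like modifier, had 94927, 79579 and 80113 against 179, 188 and 157, a difference of -8.91. Irf7, the regulator that amplifies type I interferon, was almost the same in all 3 IFNg/LPS libraries at 217271, 219351 and 217240.0, against 392, 221 and 189. Cmpk2, a nucleotide kinase, differed by -9.62 and the exonuclease Isg20 by -8.43. The smallest difference of the list was -1.98, in Irf9, a DNA-binding partner of STAT2. Relative to the M-CSF mean, the median member stood 3.81 to 4.10 higher in the IFNg/LPS libraries and 0.97 to 1.27 lower in the IL-4 libraries, and 1 of the 3 M-CSF libraries stood above the other two.

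Inflammatory cytokine genes were higher with IFNg/LPS throughout. All 20 tested of 22 listed were called in that direction (background 37.3%), 19 of them beyond 2-fold, with a median of -5.88, or -5.81 with the gene at 0 in IL-4 set to its bound. Il1b had 91812, 22987 and 30911 with IFNg/LPS against 16.7, 17.4 and 15.2 with IL-4, a difference of -11.18 (SE 0.57, adjusted p = 7.7e-11), or -10.58 without IFNg/LPS library 1. Il1rn, the antagonist of the IL-1 receptor, was at 295700.0, 281188 and 253358 against 634, 1258 and 1209.9, a difference of -8.12 (SE 0.27, adjusted p = 8.7e-13). Agonist and antagonist thus lay on the same side. Il10, an anti-inflammatory cytokine, was also higher with IFNg/LPS, at 4677, 1705 and 1740.4 against 21.4, 15.8 and 16.4, a difference of -7.01 (SE 0.66, adjusted p = 9.1e-08). Il27 differed by -7.83 and the death ligand Tnfsf10 (TRAIL) by -5.94. Csf3, the neutrophil growth factor, was at 244, 49.5 and 45.8 with IFNg/LPS and at 0 in all IL-4 libraries, at least 32.2-fold lower, or 13.6-fold without IFNg/LPS library 1. Il33, Ifnb1 and Il12a reached 16.8 to 119.6 with IFNg/LPS and were at or under 3 reads in every IL-4 library. IFNg/LPS library 1 held the highest value for Il1b, Il12b, Il6, Il10 and Csf3, and the median member of the list stood 5.88, 5.13 and 4.92 above the M-CSF mean in IFNg/LPS libraries 1, 2 and 3.

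Chemokines did not share 1 direction. Of 23 tested, 14 passed the 2-fold test towards IFNg/LPS and 4 towards IL-4, with a median of -3.45. Ccl5, which draws T cells and monocytes, had 541019, 439903 and 445095 with IFNg/LPS against 146, 114 and 84.3, a difference of -12.03 (SE 0.58, adjusted p = 3.8e-11). Cxcl11, the third ligand of the receptor for Cxcl9 and Cxcl10, differed by -11.48 and the neutrophil attractant Cxcl2 by -7.66. The 4 on the IL-4 side were Ccl6 (4.20) and Ccl9 (2.17), which are monocyte attractants, the eosinophil attractant Ccl24 (3.35) and Ccl17. Ccl6 had 1489.6, 4386 and 3146 against 38480.2, 65487 and 50574. Ccl17 was at 78, 51.4 and 56.2 with IL-4 and at or under 3 reads in every IFNg/LPS library. Ccl22, often named beside Ccl17 as an IL-4 gene, was at 1208, 770.3 and 682 with IFNg/LPS and 758, 801 and 697 with IL-4, with overlapping groups (-0.19, adjusted p = 0.77) and both above the M-CSF mean of 131.

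Receptors for chemoattractants followed both directions. The formyl peptide receptors Fpr1 (-10.63) and Fpr2 (-10.14), which sense bacterial peptides, showed the largest differences. Ccrl2, a receptor that binds the attractant chemerin, differed by -5.26 and the lymph node homing receptor Ccr7 by -4.72. Without IFNg/LPS library 1, where Ccr7 was at 3926 against 979 to 1033 in the others, its difference was -4.06. Ccr2, the receptor for monocyte attractants such as Ccl2, went the other way, at 808, 1238 and 1179.7 against 2098, 3529 and 4352 (1.59, SE 0.26, adjusted p = 3.6e-05), and Cxcr4 differed by 2.47. Cx3cr1, the fractalkine receptor, was at 209.6, 153 and 196 against 11.1, 12.4 and 8.2, a difference of -4.02, and both groups stood below the M-CSF mean of 939.

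The receptors and relays of the stimuli were themselves unequal. Of 36 tested, 28 were called towards IFNg/LPS and 7 towards IL-4, with a median of -1.23. Il4ra, the signalling chain of the IL-4 receptor, had 42480.2, 40652 and 37937 with IFNg/LPS and 3521, 3257 and 3227 with IL-4, a difference of -3.60 (SE 0.17, adjusted p = 4.2e-11), and the M-CSF mean was 5121. The partner chains Il2rg (-2.71) and Il13ra1 (-4.36) lay on the same side. Ifngr1, the binding chain of the IFNg receptor, showed the opposite, with 2207, 2501 and 2724 against 6482, 8371 and 7760.4, a difference of 1.60 (SE 0.14, adjusted p = 4e-08). Among the relays, Stat2 differed by -4.41, whereas Stat6, which carries the IL-4 signal, differed by -0.44. Socs3, a feedback inhibitor of JAK signalling, had 44596, 26640.2 and 25808 against 52.9, 33.2 and 52.7, a difference of -9.40, and Socs1 differed by -3.61. The family members Socs2 (4.39) and Cish (1.76) were higher with IL-4. Cd14, the LPS co-receptor, differed by -3.36 and Tlr4 by 0.52.

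Of 49 transcription factors of activation, 29 were called towards IFNg/LPS and 15 towards IL-4. The NF-kB members Relb (-2.16), Nfkb2 (-2.48) and Rela (-1.36), the NF-kB inhibitor Nfkbia (-4.87) and the interferon regulatory factors Irf1 (-4.24) and Irf7 (-9.74) were higher with IFNg/LPS. Irf4, a further interferon regulatory factor and a partner of STAT6 in macrophages, lay on the IL-4 side, with 93, 48.6 and 61.6 against 4562, 4988 and 5437, a difference of 6.23 (SE 0.28, adjusted p = 2.1e-11). Irf3, the constitutive factor that starts the interferon beta response, had an interval within 1.5-fold (-0.04). A further contrast lay within the BATF family, where Batf2 was at 9716, 7956 and 8978 against 156, 153 and 155 (-5.83) and Batf3 at 69.4, 77.5 and 74.2 against 1248, 1454 and 1441 (4.21). The growth regulator Myc was at 28.1, 47.6 and 39.5 against 1516, 2396 and 2518 (5.76, SE 0.24, adjusted p = 6.4e-12), while Mxd1, which competes with Myc for the partner Max, differed by -5.91. Pparg, a lipid-sensing nuclear receptor, differed by 4.65, and Cebpa, a factor of myeloid differentiation, by 3.05.

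Genes of the IL-4 programme were mostly but not all on the IL-4 side. Of 37 tested, 32 were called higher with IL-4 (background 38.7%) and 4 lower, with a median of 4.39. Its genes were listed for their link to IL-4, with earlier results of these data known. That share therefore reflects the make-up of the list and is no finding. Fn1, the matrix protein fibronectin, had 65, 81.2 and 47.4 with IFNg/LPS against 8818, 25748 and 23019, a difference of 8.08 (SE 0.48, adjusted p = 4.5e-10). The lectins Mgl2 (7.86) and Clec10a (6.80), the kinase Matk (7.26) and the secreted glycoprotein Olfm1 (4.98) followed. Ear11, an eosinophil-associated ribonuclease, had 1.5, 7.5 and 1.6 against 11036, 20116 and 17364, a difference of 12.01, and its relatives Ear1 (7.50) and Ear2 (7.47) may share reads. Il31ra was at 903, 1048 and 1052 with IL-4 and at or under 3 reads in every IFNg/LPS library. The 4 genes higher with IFNg/LPS were the sterol hydroxylase Ch25h (-6.10), the transglutaminase Tgm2 (-4.15), the arginine transporter Slc7a2 (-2.15) and the factor Klf4 (-1.30). Slc7a2 and Klf4 were also above M-CSF with IL-4, at 11843 to 13413 against a mean of 366 and at 2509 to 3796 against 348. The list took 0.273% of IFNg/LPS reads and 1.49% of IL-4 reads.

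Arginine can feed nitric oxide, ornithine or polyamines. Of 20 genes of these branches, 8 were called towards IL-4 and 9 towards IFNg/LPS, shares near those of all genes. Beside Nos2, the IFNg/LPS side held Ass1 (-4.53), which regenerates arginine, Gch1 (-2.47), the first enzyme of the nitric oxide synthase cofactor, and Arg2 (-3.85), the mitochondrial arginase. Beside Arg1, the IL-4 side held the polyamine enzymes Srm (3.68), Sms (1.91) and Amd1 (1.67). Srm, spermidine synthase, had 56.1, 74.7 and 103 against 819, 1127 and 1025 (SE 0.21, adjusted p = 2.7e-10). Odc1, which supplies putrescine to Srm, was on the other side at -0.96. Arg1 and Arg2, the 2 arginases, thus differed in direction.

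Antigen presentation divided by class. Of 22 tested genes of MHC class I and peptide loading, 20 were called towards IFNg/LPS, 19 of them beyond 2-fold, with a median of -2.71. Tap2, a subunit of the peptide transporter, had 36248, 31774 and 31269.6 against 2415, 2362 and 2369, a difference of -3.79 (SE 0.08, adjusted p = 1.1e-14). The loading factor Tapbpl (-4.03) and the class I genes H2-Q4 (-4.64) and H2-T22 (-4.15) were of like size, and reads may be shared between class I genes. The 2 genes called towards IL-4 were the general chaperones Calr (0.92) and Pdia3 (0.64). In class II, 8 of 14 were called towards IL-4 and 4 towards IFNg/LPS, with a median of 1.04, but 1 passed the 2-fold test towards IL-4 and 2 towards IFNg/LPS. Ciita, the master regulator of class II genes, had 1073, 1134 and 1009 against 7453, 6702 and 6463, a difference of 2.68 (SE 0.23, adjusted p = 3.7e-08), and the M-CSF mean was 989.6. The class II chains H2-Aa (1.41) and H2-Eb1 (1.46), the invariant chain Cd74 (1.41) and the peptide exchange factor H2-DMb1 (1.40) followed Ciita. H2-Oa, which inhibits that exchange, was at 222, 198 and 226 against 21.4, 9.1 and 2.3 (-4.57, or -3.84 without IL-4 library 3 and -5.22 without IL-4 library 1). Rfx5, a DNA-binding factor of class II promoters, was at -1.40. Relative to the M-CSF mean, the median class II member stood 0.51 to 0.69 higher with IFNg/LPS and 1.33 to 1.98 higher with IL-4.

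Ligands that instruct T cells followed class I more than class II. Of 18 tested, 12 passed the 2-fold test towards IFNg/LPS and 2 towards IL-4, with a median of -2.85, or -2.66 with the gene at 0 in IL-4 at its bound. Cd40, which receives help from T cells, had 43832, 33998 and 29949 against 291, 331 and 283, a difference of -6.88 (SE 0.23, adjusted p = 8.9e-13). The ligands of the inhibitory receptor PD-1 were divided. Cd274 (PD-L1) had 337774, 247443 and 229250.0 against 10442, 4999 and 4356 (-5.45), whereas Pdcd1lg2 (PD-L2) had 269, 203 and 150.0 against 3115, 2094 and 1594 (3.43). The other ligand past 2-fold towards IL-4 was 4632428N05Rik (1.75), the symbol used for VISTA, a checkpoint ligand. Lgals9, a ligand of the inhibitory receptor TIM-3, differed by -3.76.

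Glycolysis and the TCA cycle lay on opposite sides. Of 27 tested genes of glycolysis and lactate handling, 19 were called towards IFNg/LPS, 13 of them beyond 2-fold, and 5 towards IL-4, with a median of -1.19. Pfkl, the phosphofructokinase subunit of liver type, had 14111, 10095 and 10145 against 826, 1062 and 1106, a difference of -3.51 (SE 0.16, adjusted p = 2.8e-11). The lactate exporter Slc16a3 (-4.85), Tpi1 (-2.52) and Gapdh (-1.88) were on the same side. Ldhb, the lactate dehydrogenase subunit of oxidative tissues, was the clearest exception, with 97.4, 105 and 104 against 1599, 1271 and 1178, a difference of 3.70 (SE 0.10, adjusted p = 1e-13), whereas Ldha differed by -1.78. Of 26 TCA cycle and itaconate genes, 21 were called towards IL-4, 8 of them beyond 2-fold, with a median of 0.63. The intervals of 9 of the 26 lay within 1.5-fold. The 2 called towards IFNg/LPS were Irg1 and the pyruvate carboxylase Pcx (-0.89). Towards IL-4, the isocitrate dehydrogenases Idh1, Idh2 and Idh3a showed the largest differences. Idh1, the cytosolic form, had 1919, 2525 and 2652 against 23445, 21718 and 20899 (3.23, SE 0.14, adjusted p = 1.2e-11), and the mitochondrial Idh2 and Idh3a differed by 2.90 and 2.29. The subunits of succinate dehydrogenase differed less, with Sdha at 1.00 and Sdhd at 0.03.

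Respiratory chain subunits differed in 1 direction but by little. Of 30 tested, 25 were called towards IL-4 and the intervals of 7 lay within 1.5-fold, with a median of 0.62. The largest differences of the list were those of Uqcrc1 (1.21) of complex III and Cox4i1 (1.20) of complex IV. Ndufb5 (1.03) and Ndufs7 (0.96) of complex I were close behind. Cycs, the electron carrier cytochrome c, was the 1 gene called towards IFNg/LPS, with 10389, 10912 and 11394 against 5356, 5569.8 and 5864 (-0.96). Of 31 genes of fatty acid oxidation and uptake, 21 were called towards IL-4 and 7 towards IFNg/LPS, with a median of 0.75. Acsl1 and Acsl3, which activate fatty acids, lay at opposite ends, with Acsl1 at 45775, 68390.4 and 71479 against 2059.7, 2026 and 1961 (-4.91, SE 0.15, adjusted p = 3.9e-13) and Acsl3 at 205, 274 and 218 against 2558, 3077 and 2618 (3.57, SE 0.12, adjusted p = 1.4e-12). The electron carrier Etfb (2.61), the dehydrogenase Acadm (1.91), the lipase Lpl (3.32) and the fatty acid receptor Cd36 (3.20) were on the IL-4 side. Cpt1a, which controls entry of fatty acids into mitochondria, differed by -0.21.

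Sterol and fatty acid synthesis was higher with IL-4. Of 29 tested genes, 27 were called in that direction, 15 of them beyond 2-fold, with a median of 1.84. Fasn, fatty acid synthase, had 218, 272 and 298 against 4269, 4195 and 4336, a difference of 4.03 (SE 0.16, adjusted p = 4.8e-12). The reductase Dhcr7, which acts late in cholesterol synthesis, differed by 3.55 and the elongase Elovl6 by 3.48. Among 16 cholesterol efflux and LXR genes, the transporter Abca9 (5.40) and the hydroxylase Cyp27a1 (4.60) were higher with IL-4 and Ch25h and the receptor Nr1h3 (-1.69) with IFNg/LPS. Abca9 and Cyp27a1 were higher still in M-CSF, with means of 3656 and 3231 against 1179 and 1619.6 at most with IL-4.

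Replication and mitosis genes were higher with IL-4 by a median of 3.64, and 30 of 34 passed the 2-fold test (background 14.2%). Rrm2, the subunit of ribonucleotide reductase made in dividing cells, had 38.4, 33.6 and 28.4 against 1832, 3574 and 3505, a difference of 6.38 (SE 0.37, adjusted p = 2.8e-10). The mitotic cyclin Ccnb2 had 19.2, 28 and 20.5 against 856, 1481 and 1551 (5.75), and the mitotic regulators Cdc20 and Plk1 differed by 5.36 and 5.12. IL-4 library 1 held the lowest IL-4 value of each of these, and the median member stood 0.49, 1.28 and 1.27 above the M-CSF mean in IL-4 libraries 1, 2 and 3. In the IFNg/LPS libraries it stood 2.47 to 2.82 below. The 2 genes called towards IFNg/LPS were the spindle factor Tpx2 (-1.14) and thymidylate synthase Tyms (-0.81). Regulators of G1 were divided, with 6 of 19 called towards IL-4 and 10 towards IFNg/LPS. The D-type cyclin Ccnd2 had 14013, 7059.7 and 7254 against 432, 234 and 274 (-4.88, SE 0.37, adjusted p = 7.2e-09), and the cell cycle inhibitor Cdkn1a (p21) differed by -2.19. The factor E2f2 (3.61) and the inhibitor Cdkn2c (2.97) lay on the IL-4 side. In bulk RNA, fewer cells of a kind, such as cells in division, and less RNA per cell cannot be told apart.

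Cytosolic ribosomal protein genes were also higher with IL-4, all 34 tested being called and 29 passing the 2-fold test, with a median of 2.02. Rpl10a, of the large subunit, had 539, 1106 and 1178 against 14352, 16062 and 15834, a difference of 4.11 (SE 0.23, adjusted p = 1.7e-10). Rps18 (3.04) and Rpl3 (2.79) followed, and the elongation factor Eef1a1 was at 1851, 3763 and 4479 against 25002, 29105 and 28689 (3.13). IFNg/LPS library 1 was the lowest in each of these genes. The list took 0.233% ± 0.0709 (SD, n = 3) of IFNg/LPS reads, 1.08% ± 0.113 (SD, n = 3) of IL-4 reads and a mean of 0.986% in M-CSF. These genes have many processed pseudogenes, and the handling of shared reads is not given in the sources used here.

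**Figure D4:**
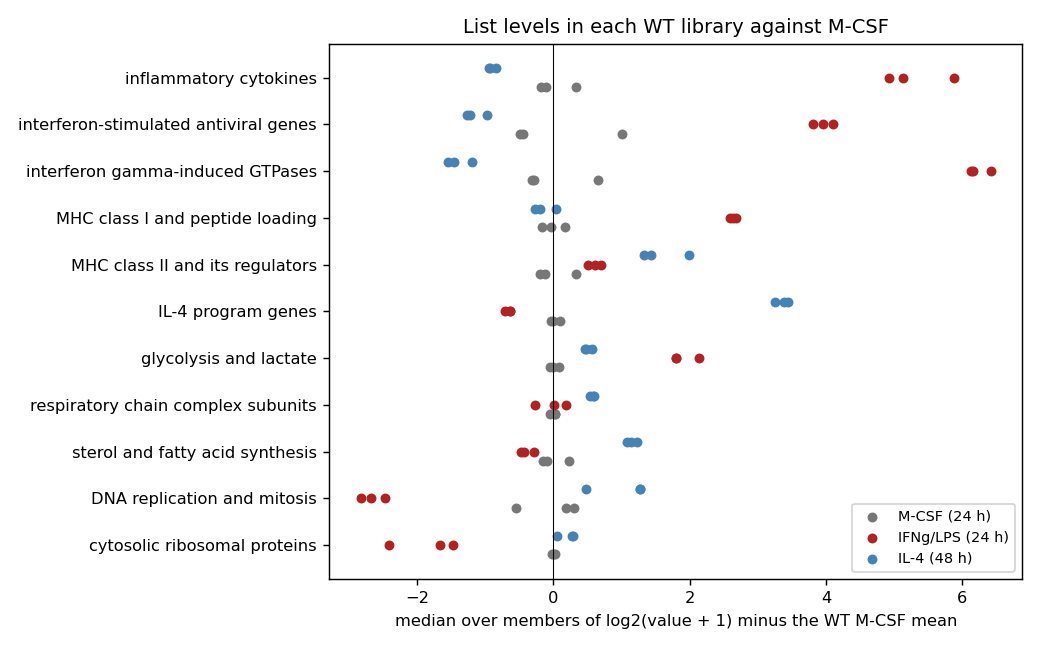
Median over the members of 11 gene lists of log2(value + 1) minus its mean over the WT M-CSF libraries (axis of values), 1 point per WT library, M-CSF in grey, IFNg/LPS in red and IL-4 in blue. The 2 stimuli lie on opposite sides of the M-CSF level for antiviral genes, GTPases and cytokines, on the same side for MHC class II and glycolysis, and for ribosomal proteins the IL-4 libraries lie at 0.05 to 0.29 and the IFNg/LPS libraries at -2.41 to -1.46.

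Of 32 lysosomal genes, 15 were called towards IL-4 and 11 towards IFNg/LPS, or 5 after quantile normalisation, with a median of 0.25, and 8 (25%) passed the 2-fold test, near the 27.3% of all genes. The list took 7.95% of IL-4 reads and 4.80% of IFNg/LPS reads. Psap, the precursor of activators of lipid breakdown, took 2.64% and 1.33%, and the protease Ctsb 1.85% and 1.16%. In scaled values these genes differed less than in shares of reads. Over the alternative settings the log2 difference was 0.50 to 0.77 for Psap and 0.16 to 0.38 for Ctsb. Ctsb was called under none of those settings. The proton pump subunit Atp6v0d2 had 1574, 4619 and 4014 against 91695, 86453 and 79408, a difference of 4.80 (SE 0.45, adjusted p = 9.6e-08), and the glucuronidase Gusb differed by 2.11. The proteases Ctsc (-3.81) and Ctsh (-2.39) were on the IFNg/LPS side. In the endoplasmic reticulum, 14 of 24 genes were called towards IL-4 and 8 towards IFNg/LPS. The chaperone factors Sdf2l1 (2.71), Pdia4 (2.57) and Dnajc3 (1.72) were higher with IL-4. On the other side were Trib3, a stress-induced pseudokinase, at 1351, 1394 and 1349 against 277, 154 and 146 (-2.88) and Ddit3 (CHOP) and Atf4 at -1.73 and -1.45.

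Of 18 iron and haem genes, 10 were called towards IFNg/LPS and 6 towards IL-4. Tfrc, the transferrin receptor that brings iron in, had 1882, 1942 and 1989.9 against 81373, 54449 and 45871, a difference of 4.92 (SE 0.15, adjusted p = 3.1e-13), with an M-CSF mean of 10340.4 between them. Fth1, the ferritin heavy chain that stores iron, took the most reads of all genes with IFNg/LPS at 3.27%, against 0.786% with IL-4 (-2.50, SE 0.14, adjusted p = 2.8e-10). The ferritin light chain Ftl1 did not follow, with overlapping groups and an interval within 1.5-fold (-0.01, adjusted p = 0.93). The ferroxidase Cp (-6.89), the haem oxygenase Hmox1 (-3.44) and the divalent metal transporters Slc11a1 (-2.53) and Slc11a2 (-1.51) were higher with IFNg/LPS, and Hfe (3.19), which modulates the transferrin receptor, with IL-4. The iron hormone gene Hamp was at 75.3, 34.5 and 17.4 with IFNg/LPS and at or under 3 reads with IL-4. Of 24 genes of the oxidative burst and its defence, 15 were called towards IFNg/LPS, 11 of them beyond 2-fold, and 3 towards IL-4, or 5 towards IL-4 after quantile normalisation. The mitochondrial superoxide dismutase Sod2 had 60819, 47309 and 57909 against 2902, 2655 and 2656 (-4.33, SE 0.14, adjusted p = 6.2e-13), and the peroxiredoxins Prdx5 and Prdx6 differed by -3.39 and -1.98. The 3 called towards IL-4 were Sod1 (0.95), Gpx1 (0.72) and Gpx4 (0.41).

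Surface receptors for particles were divided evenly, with 11 of 32 scavenger, lectin and apoptotic cell receptors past 2-fold in each direction. Clec4e (Mincle), which senses mycobacterial lipid, had 65304, 60608 and 63990.5 against 124, 72.2 and 82, a difference of -9.44 (SE 0.40, adjusted p = 1.1e-11), and Marco, which binds bacteria, differed by -10.82. On the other side stood Mrc1, the fungal receptor Clec7a (dectin-1, 3.52) and Trem2 (2.84), which senses lipids. Receptors for the Fc part of antibodies included Fcgr1, the high-affinity receptor, at 62930.4, 67631 and 70931 against 1443, 1355 and 1176 (-5.67, SE 0.23, adjusted p = 7.7e-12). Fcgr4 (-4.16) and the signalling chain Fcer1g (-1.83) agreed in direction, while the Fc receptor-like gene Fcrls (4.65) of the same list did not. That list had 8 tested genes, with 4 called towards IFNg/LPS and 2 towards IL-4. Of 27 Toll-like and cytosolic receptors, 22 were called towards IFNg/LPS and 3 towards IL-4, with a median of -1.51. Nod1 (-5.02), Tlr9 (-4.36), Tlr3 (-3.44) and the inflammasome protease Casp1 (-2.71) were on the IFNg/LPS side, and the inflammasome adaptor Pycard (1.79), Tlr8 (1.19) and Tlr4 on the other. Among 19 complement genes, 9 were called towards IFNg/LPS and 3 towards IL-4, or 8 towards IL-4 after quantile normalisation. Factor B, Cfb, had 75326, 59498 and 73818 against 68.7, 75.5 and 60.9 (-9.97, SE 0.50, adjusted p = 6.6e-11), and C1ra of the first complex differed by -2.69. Its partner C1s was at 96, 129 and 158 with IFNg/LPS and at or under 3 reads in every IL-4 library. Itgax, the chain of complement receptor 4 also known as CD11c, had 4831, 6496 and 6142 against 121387, 115166 and 121402 (4.37, SE 0.33, adjusted p = 6.2e-09).

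Matrix and growth factor genes were found on both sides. Mmp12, macrophage elastase, had 19184, 34394 and 24902 against 550977, 575677 and 560442, a difference of 4.47 (SE 0.29, adjusted p = 1.2e-09). The matrix protein Thbs1 (-5.80) and the basement membrane collagen Col4a2 (-5.31) were higher with IFNg/LPS. In all, 7 of 27 matrix genes were called towards IL-4 and 12 towards IFNg/LPS. Igf1, an insulin-like growth factor, had 3437, 6069 and 5914 against 87289, 71761 and 69000.3 (3.92, SE 0.20, adjusted p = 8.7e-11), Hgf differed by 2.52 and Inhba, a subunit of activin, by -5.25. Of the 24 growth and repair factors, 10 were called towards IL-4 and 9 towards IFNg/LPS, shares near those of all genes (38.7% and 37.3%).

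The cyclooxygenases that start prostaglandin synthesis were exchanged. Ptgs2, the inducible form, had 166134, 63567 and 68548 with IFNg/LPS against 24.1, 25.7 and 19.9 with IL-4, a difference of -11.86 (SE 0.51, adjusted p = 1.1e-11). Ptgs1, the constitutive form, had 32.5, 21.5 and 19 against 3165, 2984 and 3373, a difference of 7.0 (SE 0.20, adjusted p = 1.7e-13), with an M-CSF mean of 491. The phospholipase Pla2g4a (-3.39), which frees arachidonic acid, and the prostaglandin E synthase Ptges (-5.33) were on the side of Ptgs2. The thromboxane synthase Tbxas1 (1.97), the leukotriene A4 hydrolase Lta4h (1.68) and the epoxide hydrolase Ephx1 (5.22) were on the side of Ptgs1. Ptgis, the prostacyclin synthase, was at 75.2, 38.2 and 38.6 with IL-4 and at or under 3 reads with IFNg/LPS. Of 25 eicosanoid genes, 15 were called towards IL-4 and 7 towards IFNg/LPS.

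Among 29 genes of the PI3K, Akt and mTOR pathway, 10 were called towards IL-4 and 12 towards IFNg/LPS (background 38.7% and 37.3%). Their median of -0.02 was also near that of all genes. The 2-fold test was passed by 4 of them (background 27.3%), and 12 had an interval within 1.5-fold (background 21.7%). Pik3cg, the gene disrupted in the p110g-/- cells, was at 3559.5, 2309 and 2604 with IFNg/LPS and 3068, 2953 and 3280.5 with IL-4 in these WT cells, with overlapping groups (0.16, adjusted p = 0.55). The sestrins, stress proteins that restrain mTORC1, were split. Sesn1 had 332, 409 and 395 against 7547, 6791 and 6047 (4.16, SE 0.13, adjusted p = 3.9e-13), below the M-CSF mean of 15663, whereas Sesn3 differed by -2.20. Ddit4, a further inhibitor of mTORC1, differed by -2.16 and the kinase Akt1 by 1.02.

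**Figure D5:**
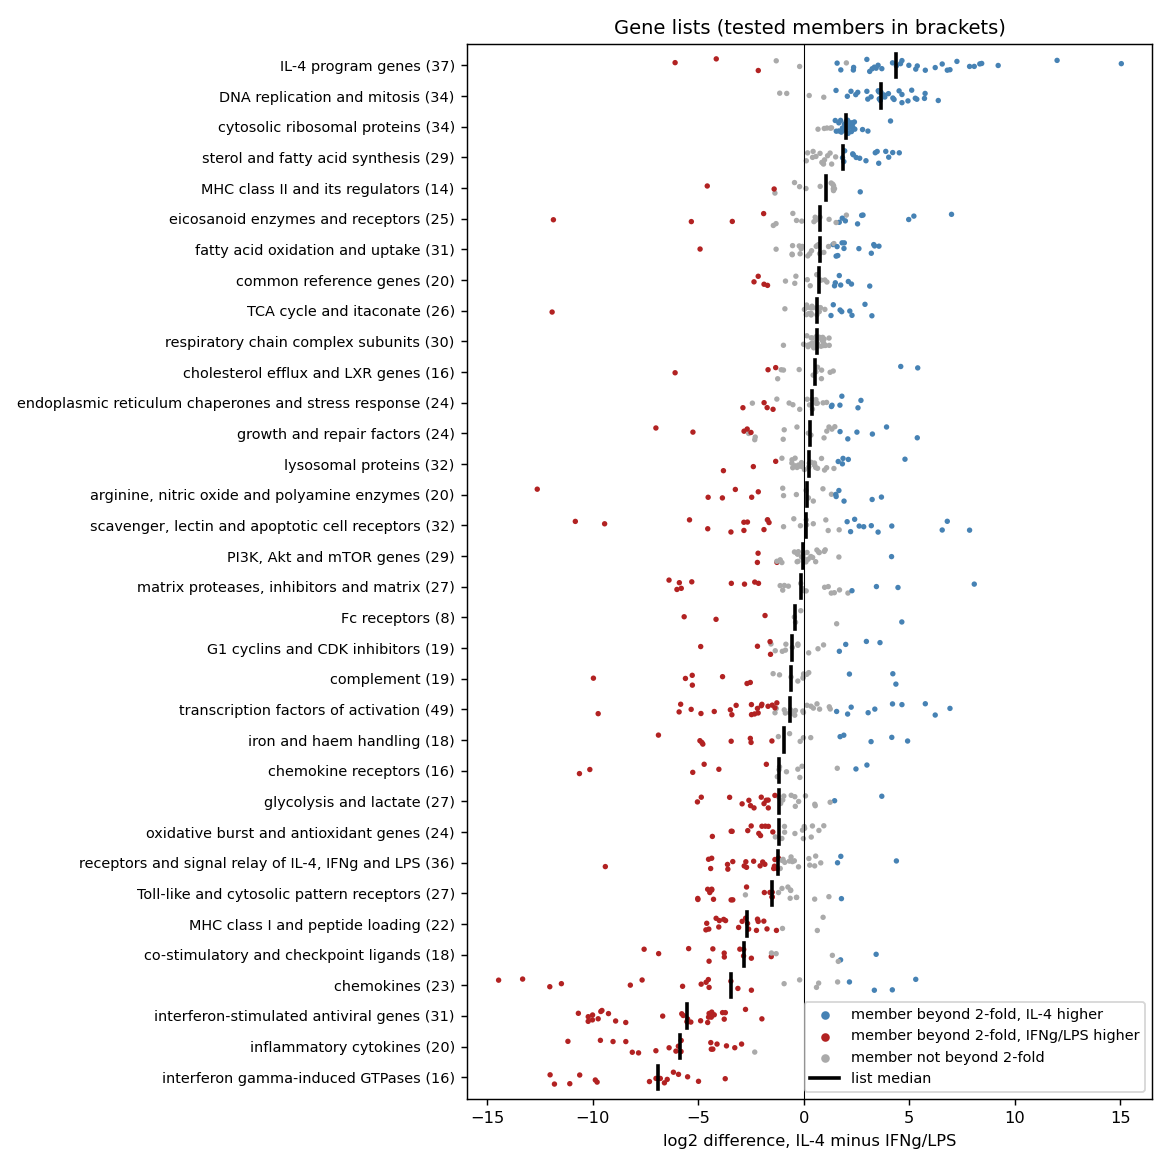
Difference between IL-4 and IFNg/LPS in log2(value + 1) (axis of values) for the tested members of 34 gene lists, 1 point per gene (blue and red past the 2-fold test towards IL-4 and IFNg/LPS, grey not), with a black bar at the median of each list. The lowest medians are those of the GTPases (-6.90), cytokines (-5.88) and antiviral genes (-5.52), and the highest those of the IL-4 programme (4.39), replication (3.64) and ribosomal proteins (2.02).

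Outside the lists, the largest differences with non-overlapping groups were named by rule. Towards IL-4 these included Map2, a microtubule protein (8.05), the membrane protein Tmem26 (7.92) and Lrrc32, which holds latent TGF-beta at the cell surface (7.57). Towards IFNg/LPS they included Gm14446 (-12.10), the chloride channel protein Clic5 (-11.81) and Ly6a, a surface protein known as Sca-1 (-11.47). Some genes were at 0 in a whole group. Scn3a, a sodium channel subunit, was at 2146, 1512 and 1299 with IL-4 and at 0 in all 3 IFNg/LPS libraries, at least 349-fold higher. The potassium channel gene Kcnd3 was at least 202-fold and Msx3 at least 79.7-fold higher with IL-4. The reverse held for U90926 at 1175, 1408 and 1808 (at least 417-fold lower with IL-4), for the IL-23 receptor Il23r at 1568, 849 and 987 (at least 323-fold) and for Gm11435 (at least 283-fold).

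Genes that were alike give the other end of the scale. An interval within 1.5-fold did not exclude a call, since 1512 of the tested genes (9.68%) had both. Genes of at least 1000 on average with the narrowest intervals around 0 included Trappc11, Sec11a, Rbck1, Senp5, Ppp1ca, Taf9 and Dctn1. Ppp1ca, the catalytic subunit of protein phosphatase 1, was at 17545, 17838 and 18484 with IFNg/LPS and 17244, 18314 and 18282 with IL-4. Of 20 genes often used as references, 19 were called. Gapdh (-1.88), Pgk1 (-2.36) and B2m (-2.16) were higher with IFNg/LPS, and Gusb (2.11), Rpl32 (2.26), Eef2 (1.69) and Rpl13a (1.75) with IL-4. Polr2a, the large subunit of RNA polymerase II, was the 1 not called, at 10005, 10178 and 11491 against 12196, 11391 and 12000.1 (0.17, adjusted p = 0.059), although quantile normalisation gave 0.56. Actb differed by -0.86 and, after quantile normalisation, by -0.07 (adjusted p = 0.62), and Ywhaz by -0.37 and 0.26, so their direction or call rests on the scaling.

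The M-CSF libraries place the differences. For the 2216 genes past 2-fold towards IL-4, the M-CSF mean lay between the stimuli for 1655 (74.7%), above both for 483 and below both for 78, and it was nearer the IL-4 mean for 82.2%. For the 2054 genes past 2-fold towards IFNg/LPS it lay between for 1487 (72.4%), below both for 548 and above both for 19, and nearer the IL-4 mean for 89.5%. In either direction, then, the M-CSF level was nearer IL-4 for most genes.

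Markers of cell types are given by level, and in bulk RNA they cannot show which cells the cultures held. Several of them, such as Ear2, Fcgr1 and Ccr7, are described above as genes that differed between the stimuli. The 14 macrophage markers were abundant in all 6 libraries, with a mean of 1.83% of reads with IFNg/LPS and 1.64% with IL-4, and Lyz2, Itgam and Sirpa had intervals within 1.5-fold. Of these markers, 7 were called towards IFNg/LPS, 6 of them beyond 2-fold and among them Fcgr1, Aif1 (-3.55), Cd14 and Emr1 (-1.35), and 3 towards IL-4 (Cebpa, Csf1r at 0.89 and Cd68 at 0.51), or 7 towards IL-4 after quantile normalisation. Of 10 neutrophil markers, 5 were called towards IL-4 and 1 towards IFNg/LPS. The latter was the surface marker Ly6g (-3.34, or -4.17 without IL-4 library 1), so the list did not share 1 direction. IL-4 library 1 was the highest for the granule genes. Mpo was at 5.9, 0 and 6.3 with IFNg/LPS and 790.3, 122 and 138 with IL-4, and Elane at 0 throughout and at 142, 9.1 and 18.7. Ngp and Ltf differed by 4.73 and 5.08, or by 3.94 and 4.47 without IL-4 library 1, and by 3.73 and 4.30 without IFNg/LPS library 1. Summed over the 10 markers, the neutrophil level was 2784 to 3891 with IFNg/LPS, 5480.1, 5563 and 25668 with IL-4, and 7405 to 33553 in M-CSF. The 4 mast cell and basophil markers, led by Mcpt8 (3.44) and Prss34 (3.08), were all called towards IL-4 at low levels, with sums of 44.8 to 62.1 against 342.6 to 598.9. Of 4 tested B cell markers, Cd79b alone was called, at 17.7, 18.7 and 17.4 with IFNg/LPS and 100.3, 85.4 and 39.8 with IL-4 (1.91, adjusted p = 7.6e-05), and Ms4a1 and Cd79a were at 7 to 117 with overlapping groups. IL-4 library 1 was the highest for all 3. The 7 eosinophil markers summed to 356 to 583 with IFNg/LPS and 12797 to 13821 with IL-4, with Ear2 alone at 9621 to 10739.8 with IL-4. All 7 were called, 6 towards IL-4 and 1 towards IFNg/LPS (-0.94). The receptor Ccr3 (3.00, or 2.29 without IFNg/LPS library 1) and the lectin Siglec5 (2.73) of that list were also called towards IL-4, and the granule peroxidase Epx was at 1.5, 0 and 0 against 14.9, 1.7 and 7. T cell and NK cell markers summed to 537 to 649.9 against 308 to 544. The part of these cells in the differences above was not tested. The osteoclast fusion genes Dcstamp (4.94) and Ocstamp (6.27) and the protease Ctsk (1.83) were higher with IL-4, with Ocstamp at 139, 86.8 and 101 against 6467, 8800.5 and 10154. Dendritic cell markers summed to 1658 to 5017 with IFNg/LPS and 227 to 355 with IL-4, and the highest sum was that of IFNg/LPS library 1, where Ccr7 was at 3926. Of 8 tested, Xcr1 (-3.51) and Ccr7 were among 4 called towards IFNg/LPS, and the 2 called towards IL-4 were Zbtb46 (1.92) and Cd209a, which was at 0 with IFNg/LPS and at 9.3, 4.1 and 3.5 with IL-4. The fibroblast markers Dcn (-3.11) and Lum were higher with IFNg/LPS, with Lum at 26.8 to 29.9 and at or under 3 reads with IL-4, while Col1a2 (1.72) was called towards IL-4 and not without IL-4 library 1 (1.07).

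The same contrast in p110g-/- cells differed from WT for 888 genes (5.68%), 446 (2.85%) with a higher and 442 (2.83%) with a lower value of IL-4 minus IFNg/LPS. With the replicate number as a block the count was 1380, and it was 349 without WT IL-4 library 3, 369 without WT IL-4 library 2 and 517 without WT IFNg/LPS library 2. Arg1 differed by 5.60 in p110g-/- and 3.24 in WT (difference 2.36, adjusted p = 0.042), with a mean of 84.8 in p110g-/- IFNg/LPS against 554 in WT IFNg/LPS. Cd14 had a mean of 87034 in p110g-/- IFNg/LPS against 23203 in WT (difference -2.47, adjusted p = 0.0019), and Tnf 24368 against 13977 (difference -1.67, adjusted p = 0.0022). Csrp1, a LIM domain protein, changed sign, from -1.56 in WT to 1.77 in p110g-/- (difference 3.33, adjusted p = 2e-06).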

How the data were processed

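Messenger RNA of 18 macrophage libraries was sequenced, 3 in each of 6 groups (WT and p110g-/-, with M-CSF, IFNg/LPS or IL-4). The authors' pipeline used CASAVA 1.8.2, Bowtie2, DESeq and the mm9 build, per the submitters' processing notes. How reads with several positions were counted and whether strand was used is not given in the sources used here. The deposited values are a normalised signal, in which each library's counts had been scaled by a single factor and rounded, and whole reads could be recovered for 100% of values within 0.1. The 18 libraries held 40.1 to 69.6 M (1e6) reads, and floors of 3 reads cover counting error only.

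The filter kept 15627 of 16474 genes, those that reached 10 in 3 or more libraries. Differences in log2(value + 1) were tested with limma 3.58.1 (R 4.3.3; mean trend, robust moderation) over the 6 group means of all 18 libraries, which leaves 12 residual degrees of freedom, with Benjamini-Hochberg adjustment and a threshold of 0.05. The 2-fold test was limma's treat with a threshold of 1 on the log2 scale. The interaction compared the contrast in p110g-/- with that in WT. Alternatives were edgeR 4.0.16 and DESeq2 1.42.0 on the recovered reads, other scalings, pseudocounts and filters, fewer libraries in the fit, a replicate block and leaving out each library. In simulated data (15614 genes) 50 genes were changed at each size and 15414 were left unchanged. There limma called 52%, 84%, 96% and 100% of genes changed by 0.585, 1, 2 and 3 on the log2 scale and 0.0779% of unchanged genes. In the data 76% of genes were called, so these rates hold for the simulated setting and not for the data.

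Libraries with the same number deviated together (correlations 0.198, 0.164 and 0.116, against -0.154 to 0.0572 for different numbers), so the numbers were taken to pair the samples. Values in the text come from the fit without that block, and the fit with it is an alternative. Genes were named by a rule: the polarisation markers, the largest differences with separate groups, genes at 0 in a whole group, the 4 list members with the smallest p, the most abundant genes, the strongest interactions, the genes most alike and the reference genes. Genes named beyond the rule were chosen after their values were seen. The members and gene lists were chosen with earlier results of these data known. Some genes are not reported here.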

Additional observations from a re-analysis of the deposited data

Results flagged for a closer look

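For the genes below, the difference between IL-4 and IFNg/LPS was not the same in p110g-/- and WT macrophages by the interaction test (limma, Benjamini-Hochberg adjusted p under 0.05). Each value is the p110g-/- difference minus the WT difference on the log2(value + 1) scale, so a positive value means that IL-4 minus IFNg/LPS was higher in p110g-/-. No cause was tested.

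Among genes higher with IL-4 in WT, the difference was larger in p110g-/- for Arg1 (2.36), Mrc1 (1.30), Pdcd1lg2 (1.67), Pparg (2.35), Tmem26 (2.45), Ear2 (1.37), Ldhb (0.53), Fcrls (2.74) and Hfe (0.99). For Cd209a (1.96) the IFNg/LPS libraries of both genotypes were at 0, so its value depends on the added 1 and is no fold. Pparg had means of 92.9 in p110g-/- IFNg/LPS and 382 in WT IFNg/LPS, beside 11197 and 9034 with IL-4. Among genes higher with IFNg/LPS in WT, the difference was larger in p110g-/- for Il12b (-3.02), Tnf (-1.67), Cdkn1a (-0.85), Cd14 (-2.47) and Prdx1 (-0.96). For Il4ra (1.13), Nr1h3 (1.14), Fcgr4 (1.28), Col4a2 (1.91) and Cp (1.78) it was smaller. Il4ra had means of 21647 in p110g-/- IFNg/LPS and 40357 in WT IFNg/LPS, and 3881 and 3335 with IL-4.

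The genes with the strongest interactions were Csrp1 (3.33), Rgl1 (2.16), Gm9199 (3.81), E030030I06Rik (2.24) and Cysltr2 (4.06) in the positive direction and Ktn1 (-2.46), Fam32a (-1.05), Apbb3 (-1.71), Itpr2 (-1.09) and Sfxn1 (-0.997) in the negative. Cysltr2, a leukotriene receptor, had means of 12 in p110g-/- and 1249 in WT with IFNg/LPS. Ktn1, which binds kinesin, had 22697 and 4455. Taf9 (-0.31), named as alike between the stimuli in WT, also differed by genotype, though by little.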

How the results depend on the processing

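The counts of the WT contrast stayed within 1.5 times the main value under every alternative run: 10720 to 12117 genes called, 3837 to 4805 past 2-fold and 3072 to 3529 within 1.5-fold over the other settings, and 11315 to 11569, 3848 to 4265 and 3049 to 3415 when 1 library was left out. With the replicate block, the pairing by number, 12117 genes were called. The block changed the call of 1 named gene, Col1a1 (1.73, adjusted p = 0.058 without and 0.0118 with it). The interaction count was less stable. From 888 it became 1522 with DESeq2 (770 above and 752 below WT) and 1380 with the replicate block (723 below WT), and 349 to 1208 when 1 library was left out (201 to 659 above and 148 to 549 below). The 6- and 9-library fits give no interaction. The cause of these changes was not tested. When 1 library was left out, 2 uncalled B cell markers ranged from -0.52 to 0.88 (Cd79a) and -0.48 to 0.90 (Ms4a1). Directions reversed for Cd79a (-0.52) and Ms4a1 (-0.48) without IL-4 replicate 1, for Cd79a (-0.15) without IFNg/LPS replicate 3, and for Ywhaz (0.26) under quantile normalisation. Of 227 called named genes, 12 moved by over 1.5 times in fold when 1 library was left out, 30 under quantile normalisation and 32 with a pseudocount of 5. Depth limits genes at or under 3 reads, 293 with IFNg/LPS and 257 with IL-4, for which no fold is given.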
